A study of Drosophila melanogaster with 4 samples.

Results

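The ecdysone receptor and the transcription factors of its early response were examined in Drosophila melanogaster larvae, as the ratio of Inv mutant 4Y7 to Wild-type (Canton S) RNA. Of the 10 genes EcR, usp, Eip74EF, Eip75B, Eip78C, br, Hr3, Hr4, Hr39 and ftz-f1, 7 had at least 1 probe whose annotated symbol was exactly theirs. These 7 genes held 13 of the 14569 probes, and averaging the probes of each named gene left 13891 features in all. Eip74EF and Eip75B are not analysed here, and Hr4 was named only on a probe that carries a second symbol.

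Each of the 4 two-colour arrays set 1 sample of Inv mutant 4Y7 against 1 sample of Wild-type (Canton S), all larvae from stocks kept at 25 degrees. Mutant RNA carried Cy5 on replicates 1 and 4, and Cy3 on the other 2 arrays, replicates 2 and 3. The series calls these 4 biological replicates. The sources used here do not give the lesion of 4Y7, the instar, the tissue, the sex or the number of larvae per sample. Values are log2 ratios, so a gene's level in either genotype was not seen, and fewer cells of a type cannot be told apart from less RNA per cell.

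The direction, mutant over wild type on every array, is likely from the wording of the titles and is not stated. If the ratio ran the other way, every sign would turn. That the Cy3 arrays were already turned to match the others rests on the correlation over probes between arrays of opposite dye. Its mean was 0.217, and 0.035 without replicate 1. Replicate 1 had correlations of 0.401 and 0.397 with replicates 2 and 3. Replicate 4 had 0.031 and 0.039 with them, and 0.213 with replicate 1 of its own orientation. Replicates are therefore also given by dye orientation. The Invadolysin probe was at 0.10 ± 0.16 (SD, n = 4), with a limma adjusted p of 0.761, and does not check the labels because the lesion is unknown.

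Ecdysone is the steroid hormone that times moulting and metamorphosis in insects. It binds EcR, a nuclear receptor that acts as a heterodimer with usp, the fly homologue of the vertebrate retinoid X receptors. A pulse of hormone at the end of larval life switches on a small set of early genes, among them br, Eip74EF and Eip75B, whose products are transcription factors. A later group of nuclear receptors, which includes Hr3, Hr4, Hr39 and Eip78C, follows as the titre peaks, and ftz-f1 is expressed after the titre drops in the prepupa. Hr3 is known as an activator of ftz-f1 and as a repressor of early genes at that time.

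None of the 7 measured genes differed detectably between mutant and wild type. In limma, which tested each feature's log2 ratio against 0 with a threshold of 0.05 on the Benjamini-Hochberg adjusted p, 0 of 7 passed, against 0.821 percent of all 13891 features (114 features). At an unadjusted p under 0.05 the count was 1 of 7, Hr3, against 19.2 percent of all features. The mean log2 ratios of the 7 genes ran between -0.70 for Hr3 and 0.32 for Eip78C. Their median was -0.20, beside 0.016 over all features, and 5 of the 7 means lay below 0, beside 48.5 percent of all features.

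**Figure D1:**
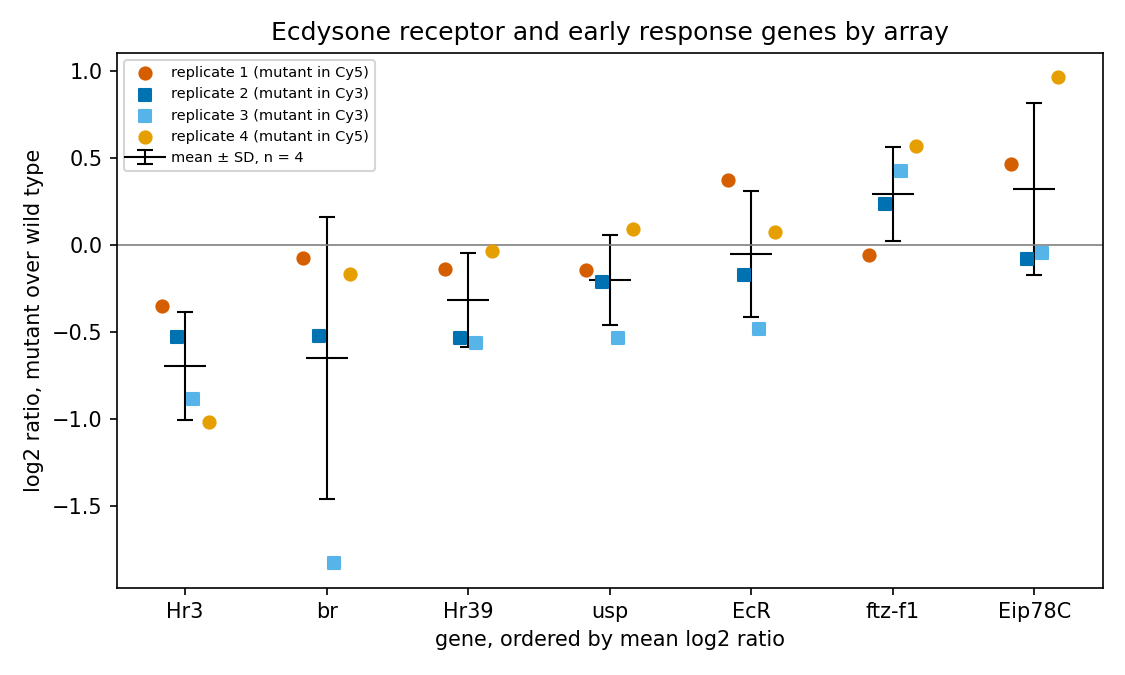
Log2 ratio of mutant over wild type (vertical axis) for the 7 measured genes (horizontal axis, ordered by mean), with 1 point per array, circles for the mutant in Cy5 and squares for the mutant in Cy3, and bars for the mean ± SD over 4 arrays. The points of Hr3, br and Hr39 all lie below 0, and the br point of replicate 3, at -1.83, lies far below its other 3.

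The hormone receptor pair was close to even. EcR had log2 ratios of 0.37, -0.18, -0.48 and 0.074 on replicates 1 to 4. Both arrays of the Cy5 orientation were above 0 and both of the Cy3 orientation below, and the mean was -0.053 ± 0.36 (SD, n = 4; limma adjusted p = 0.905). The 95% interval of the limma fit ran between 0.693-fold and 1.34-fold, mutant over wild type. Its sign turned without replicate 3, to 0.090.

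Its partner usp had log2 ratios of -0.14, -0.21, -0.54 and 0.092 on replicates 1 to 4. It was lowest on replicate 3, as EcR was, and above 0 on replicate 4. The mean was -0.20 ± 0.26 (SD, n = 4), with a limma adjusted p of 0.56 and an interval between 0.648-fold and 1.17-fold. Both intervals thus take in no change, and neither reaches the 2-fold size in either direction.

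Of the early genes, br was the only one measured. This gene, or Broad-Complex, encodes a family of zinc finger proteins with a shared BTB domain that are needed for the larva to enter metamorphosis. Its log2 ratios were -0.077, -0.52, -1.83 and -0.17 on replicates 1 to 4. All 4 were below 0, but replicate 3 lay far under the others. On that array only 1.87 percent of features were lower than br, whereas on replicates 1, 2 and 4 the shares were 44.6, 17.5 and 40.0 percent.

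The mean of br was -0.65 ± 0.81 (SD, n = 4; limma adjusted p = 0.325), an average mutant level of 0.637 times that of wild type with an interval between 0.373-fold and 1.09-fold. Without replicate 3 the mean was -0.26 (limma adjusted p = 0.708), so replicate 3 sets most of the difference. Its spread over arrays was larger than that of 86.3 percent of all features. Over the arrays that labelled the mutant with Cy5 the mean was -0.12, and over those that labelled it with Cy3 it was -1.18, a difference of 1.05 between dye orientations (limma adjusted p = 0.356 for the dye term).

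The low value of br on replicate 3 was shared by its probes. Probes of 1 gene are not separate samples, but 5 of 5 br probes had their lowest value on replicate 3, where they ran between -2.71 and -1.33. On replicate 1 the same probes ran between -0.94 and 0.36, and on replicate 4 between -0.48 and 0.34. On replicate 2 all lay below 0, between -1.05 and -0.14. The probe means ran between -0.98 and -0.38, and 0 of 5 probes were below 0 on all arrays. The current gene table lists 16 RefSeq transcripts for br, more than for any other measured gene of the set, and the sources used here do not say which of them each probe reads.

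**Figure D2:**
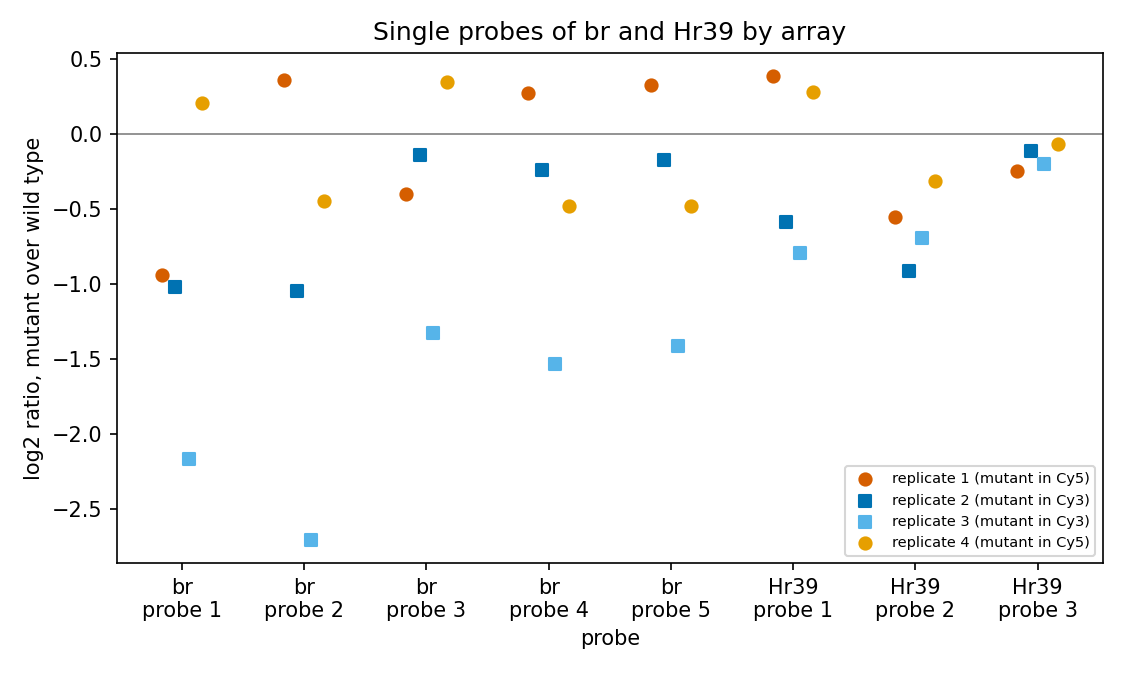
Log2 ratio of mutant over wild type (vertical axis) for each of the 5 br probes and 3 Hr39 probes (horizontal axis), with 1 point per array, circles for the mutant in Cy5 and squares for the mutant in Cy3. Replicate 3 gives the lowest point of every br probe, while the 3 Hr39 probes have their lowest points on different arrays.

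Eip78C encodes a nuclear receptor related to the Eip75B product. Its log2 ratios were 0.47, -0.083, -0.049 and 0.96 on replicates 1 to 4. Both high values came with the mutant in Cy5, and both values with the mutant in Cy3 lay just under 0. The mean was 0.32 ± 0.50 (SD, n = 4; limma adjusted p = 0.474), with an interval between 0.854-fold and 1.84-fold. By orientation the mean was 0.71 for mutant RNA in Cy5 and -0.066 for mutant RNA in Cy3, a difference of 0.78 (limma adjusted p = 0.315 for the dye term).

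Hr3 had the lowest mean and the smallest p of the 7 genes. It encodes an orphan nuclear receptor, the fly counterpart of the vertebrate ROR receptors. Its log2 ratios were -0.35, -0.53, -0.89 and -1.02 on replicates 1 to 4. All 4 arrays lay below 0. On replicate 4 Hr3 was the lowest of the 7 genes, and the next, br, was at -0.17. Of all features 9.58 percent were lower than Hr3 on replicate 4 and 26.4 percent on replicate 1.

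The mean of Hr3 was -0.70 ± 0.31 (SD, n = 4), an average mutant level of 0.617 times that of wild type with an interval between 0.452-fold and 0.843-fold. This interval excludes no change, but over all features the limma adjusted p was 0.131 and Hr3 did not pass. The size of its mean exceeded that of 87.7 percent of features. Its means were alike in both dye orientations, at -0.68 for mutant RNA in Cy5 and -0.71 for mutant RNA in Cy3. The Cy5 arrays, replicates 1 and 4, were however its highest and lowest, at -0.35 and -1.02. Leaving out 1 array at a time gave means between -0.81 and -0.59.

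Hr39 encodes a nuclear receptor closely related to the ftz-f1 product. Its log2 ratios, each the mean of 3 probes, were -0.14, -0.54, -0.56 and -0.035 on replicates 1 to 4. All were below 0, with the arrays that held the mutant in Cy5 close to 0 and the other pair lower. The mean was -0.32 ± 0.27 (SD, n = 4; limma adjusted p = 0.378), with an interval between 0.595-fold and 1.08-fold. By probe, 2 of 3 were below 0 on all arrays. The third had -0.58 and -0.80 on replicates 2 and 3 but 0.39 and 0.28 on replicates 1 and 4, and the probe means ran between -0.62 and -0.16.

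The competence factor ftz-f1 had log2 ratios of -0.058, 0.24, 0.42 and 0.57 on replicates 1 to 4. It was above 0 on 3 of 4 arrays. Its means were alike in both dye orientations, at 0.25 for mutant RNA in Cy5 and 0.33 for mutant RNA in Cy3. The Cy5 arrays, replicates 1 and 4, were however its lowest and highest, at -0.058 and 0.57. The mean was 0.29 ± 0.27 (SD, n = 4; limma adjusted p = 0.413), with an interval between 0.909-fold and 1.65-fold. Set beside its activator, the log2 ratio of ftz-f1 was above that of Hr3 on 4 of 4 arrays, by 0.99 ± 0.58 on average. This pair was singled out after its values were seen, and the difference was not tested.

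**Figure D3:**
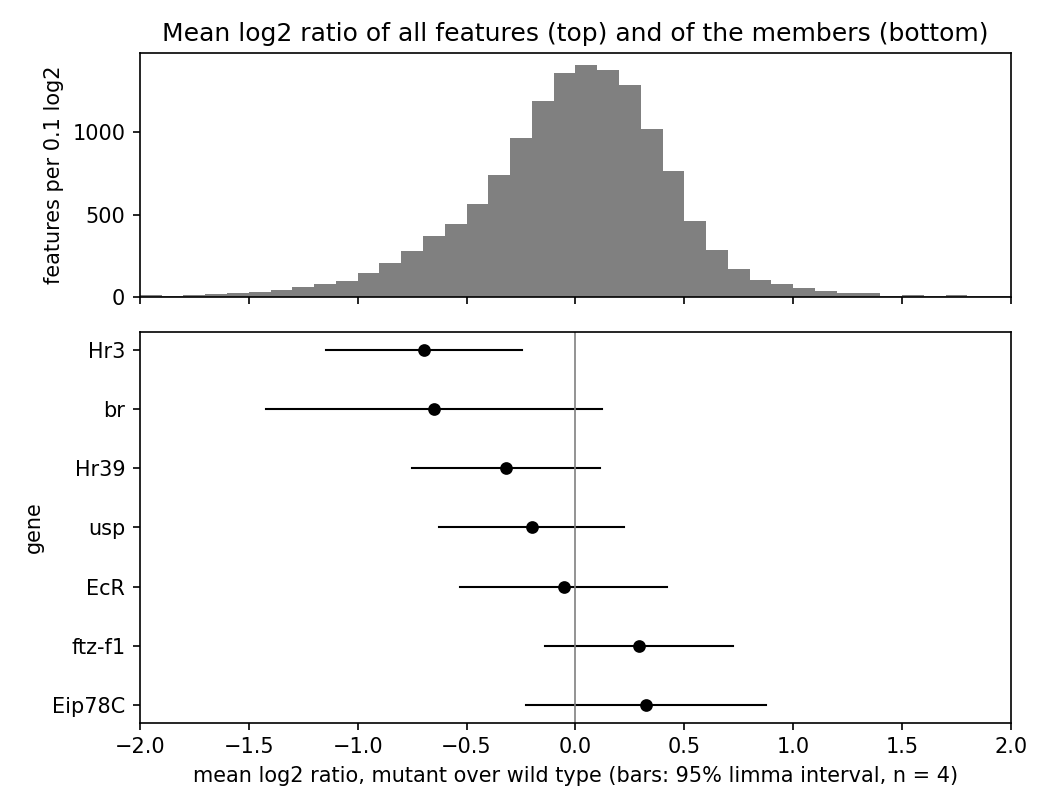
Top, histogram of the mean log2 ratio over all features (bin width 0.1; a few features lie beyond the horizontal axis). Bottom, mean log2 ratio of mutant over wild type of each measured gene with the 95% interval of the limma fit over 4 arrays. The interval of Hr3, from -1.14 to -0.25, lies below 0 and the other 6 cross it.

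Ordered by mean, the genes ran Hr3, br, Hr39, usp, EcR, ftz-f1 and Eip78C. No neighbours in this order differed by more than the spread of their difference over arrays. The step from Hr3 to br was 0.045 ± 0.75, that from br to Hr39 0.33 ± 0.63 and that from EcR to ftz-f1 0.35 ± 0.56 (SD, n = 4). The closest to a separate step was that from Hr39 to usp, at 0.12 ± 0.15, with usp the higher on 3 of 4 arrays.

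The genes Hr3, br and Hr39 were below 0 on all 4 arrays, which makes 3 of 7 beside 14.9 percent of all features (28.9 percent for the same sign in either direction). Above 0 on all arrays were 0 of 7, beside 14.0 percent of all features. With so few genes, chosen as a pathway, these counts describe the set and no more. The median over the 7 genes was -0.077, -0.21, -0.54 and 0.074 on replicates 1 to 4. It was thus lowest on replicate 3. On that array 4 of the 7 genes, EcR, usp, br and Hr39, had their lowest value, beside 26.1 percent of all features. The median SD over arrays of the set was 0.31, beside 0.42 over all features, so that apart from br and Eip78C the genes were measured with a spread no wider than usual.

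**Figure D4:**
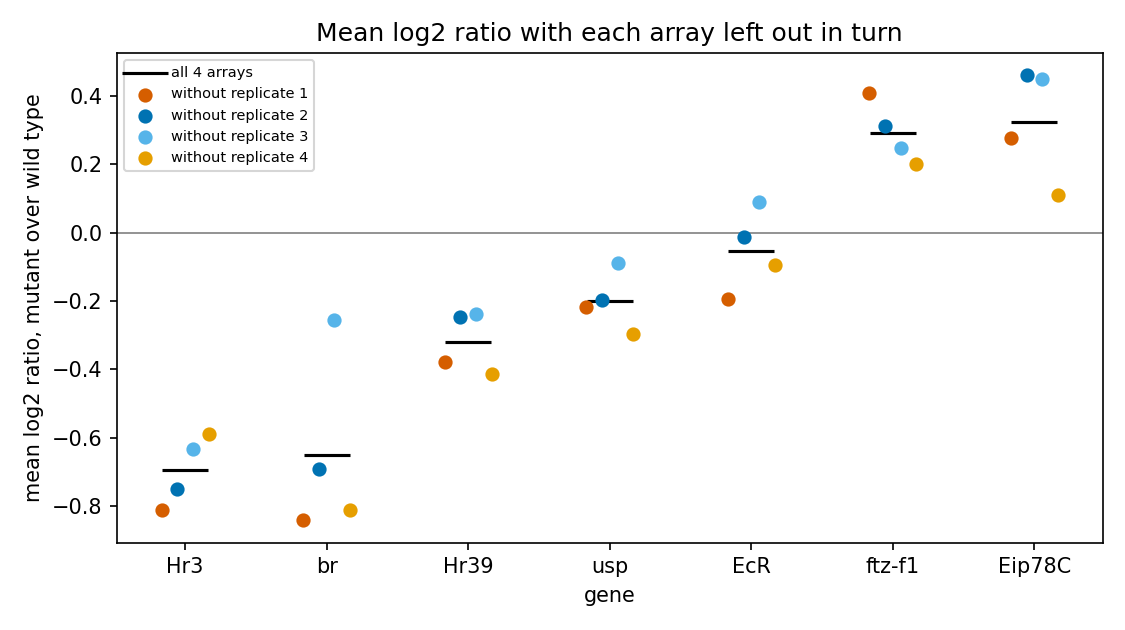
Mean log2 ratio of mutant over wild type of each measured gene from all 4 arrays (bars) and with each array left out in turn (points). The mean of br moves to -0.26 without replicate 3, that of EcR crosses 0, and that of Hr3 stays between -0.81 and -0.59.

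Difference between dye orientations was examined for each gene, since dye is the batch the labels give. By the limma dye term 0 of 7 genes passed, beside 0 percent of all features (0 features), and at an unadjusted p under 0.05 the count was 0 of 7, beside 15.9 percent of all features. The difference, the mean for mutant RNA in Cy5 less that for mutant RNA in Cy3, was -0.077 for ftz-f1. For the others it was 0.023 for Hr3, 0.35 for usp, 0.46 for Hr39, 0.55 for EcR, 0.78 for Eip78C and 1.05 for br.

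The probe that carries both Hr4 and CG3600 was kept out of the set. The current gene table lists CG3600 as a former locus tag of Hr4, an orphan nuclear receptor of the same response. Its log2 ratios were -1.12, -0.50, 0.24 and 0.027 on replicates 1 to 4, a mean of -0.34 ± 0.60 (SD, n = 4). The array values differed in sign and the mean was within their spread.

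The measured genes were spread over the chromosome arms, with 2 on X, 2 on 2R, 2 on 3L and 1 on 2L. Their nearest named neighbours on either side, 14 genes, had mean log2 ratios between -0.86 and 0.79. None of these passed in limma (0 of 14, smallest adjusted p = 0.234, 2 of 14 at an unadjusted p under 0.05), and 5 of 14 had the sign of the member beside them. Hr3, lower in the mutant by its values, lay between mlt at 0.79 ± 1.10 and CG12912 at 0.49 ± 0.44 (SD, n = 4).

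The genes nearest to Hr3 over the 4 arrays, by Euclidean distance between their log2 ratios, were CCT1, a chaperonin subunit gene, at a distance of 0.17, CG7246 at 0.18 and pyd3 at 0.19. Nearest to br were Svip at 0.37, Pcp, a pupal cuticle protein gene, at 0.39 and Rh50, an ammonium transporter family gene, at 0.40. Nearest to Hr39 were CG10098, CG5541 and CG9344, at distances of 0.076, 0.081 and 0.089. Svip, Pcp and Rh50 were each lowest on replicate 3, as br was, at -1.91, -1.65 and -1.69. This likeness follows from how they were picked. With 4 arrays and 11980 named genes close profiles are many, and likeness here is only a description.

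Other genes of the hormone pathway are given from lists chosen with earlier results of these data known. In 11 lists 82 of 115 genes were measured, and in limma 0 rose and 0 fell over all features (12 higher and 8 lower at an unadjusted p under 0.05). Those 20 are 24.4 percent of the 82 genes, beside 19.2 percent of all features. Of the 13 other nuclear receptor genes 0 passed in either direction, and their median log2 ratio was -0.011. Hr38, whose product can also pair with that of usp, was at -0.51 ± 0.18, with all arrays between -0.65 and -0.25, and knrl at 0.40 ± 0.098 (SD, n = 4; limma adjusted p = 0.179 and 0.241). Of 9 coregulator genes of the receptor 0 passed, with a median of 0.091, and Smr, the corepressor gene, was at -0.39 ± 0.42.

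Hormone synthesis and its other targets also had no gene past the threshold. Of 10 genes of ecdysone synthesis and breakdown 0 passed, with a median of 0.0096. Among them dib, a cytochrome P450 of the synthesis pathway, was at -0.82 ± 0.52, and Ptth, the brain peptide gene that drives hormone release, at 0.58 ± 0.21 (SD, n = 4; limma adjusted p = 0.148 and 0.15). Of 13 further ecdysone-induced genes 0 passed, with a median of 0.24, with ImpE2 at 0.65 ± 0.23 and Cth at -0.84 ± 0.42. Of 4 juvenile hormone genes 0 passed, with a median of 0.0090, and Jhe, which encodes the esterase that degrades that hormone, was at -1.21 ± 1.17 and Met, a receptor gene for it, at 0.35 ± 0.30. The value of Jhe rests largely on replicate 1, at -2.93 against -0.51, -0.96 and -0.43 on replicates 2 to 4, and without that array the mean was -0.63.

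Of 4 cuticle genes listed as targets of the hormone 0 passed, with a median of -0.099. Edg91, one of these, had log2 ratios of 1.04, 1.46, 1.56 and 0.93 on replicates 1 to 4, a mean of 1.25 ± 0.31 (SD, n = 4). All arrays lay well above 0, and the limma adjusted p was 0.0521. Edg91 passed under 5 of 16 alternatives, with array weights (limma adjusted p = 0.0016) and also under quantile normalization, with robust variance estimates, without features over 5 in size and within the arrays with the mutant in Cy3 (limma adjusted p = 0.0469, 0.0492, 0.0391 and 0.0393). Under the other 11, among them a dye term, scale normalization, each array left out and the arrays with the mutant in Cy5 alone, it did not (limma adjusted p between 0.0502 and 0.918). Of the settings Edg91 passed, array weights called 6079 of all 13891 features and the Cy3 arrays alone 2573, so passing there was common. Edg78E was at -0.53 ± 0.49 (limma adjusted p = 0.272).

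Fat body genes of the last larval instar were examined because the stage of the larvae is known only as larva, and of 3 measured 0 passed, with a median of 0.26. Lsp2, a larval serum protein gene of the fat body, had log2 ratios of 3.91, 0.60, -6.44 and 1.001 on replicates 1 to 4, an SD larger than that of 99.8 percent of features. Fbp2 had 3.53, -0.36, -2.02 and -0.046, and Fbp1 had -0.28, 1.92, -1.09 and 0.50. Each of these 3 genes was lowest on replicate 3, as br was and as 26.1 percent of all features were, and what part this had in the value of br was not tested.

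Salivary gland genes were split over replicate 3. Of the 7 measured, 3 had their lowest value there (42.9 percent), beside 26.1 percent of all features. These were the 3 glue genes measured, Sgs1, Sgs4 and Sgs5, lowest there as the fat body genes were. Of the 4 new glue genes (ng) 0 were lowest there. The list was chosen without this division into glue and new glue genes. Sgs4 had log2 ratios of 2.52, 2.56, 0.22 and 1.07 on replicates 1 to 4. Sgs5 had 1.76, 2.33, -0.31 and 0.059, and Sgs1 had 0.35, 2.22, 0.039 and 0.32, both named after their values were seen. What part the glue genes' RNA had in the value of br was not tested.

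Of all 7 salivary gland genes measured 0 passed, and 7 of 7 had a mean above 0, where 48.5 percent of all features had a mean below 0. The mean of ng4, a gene named after its values were seen, was only 0.012, with 3 of 4 arrays below 0. The median of the 7 genes was 0.96, with array medians of 1.30, 0.93, 1.196 and 0.70 on replicates 1 to 4. The new glue gene ng2 was at 1.77 ± 0.74, ng3 at 0.98 ± 0.43 and the glue gene Sgs4 at 1.59 ± 1.15 (SD, n = 4; limma adjusted p = 0.0602, 0.0887 and 0.131). Of 16 alternatives ng2 passed under 4, which were scale normalization, removal of features over 5 in size, array weights and the Cy3 arrays alone (limma adjusted p = 0.0448, 0.0469, 0.00615 and 0.0485). Array weights called 6079 of all 13891 features and the Cy3 arrays alone 2573. Under the other 12 the limma adjusted p of ng2 ran between 0.0554 and 0.902. Among these were a dye term, quantile normalization, each array left out and the Cy5 arrays alone. Of 9 Eig71E late genes 0 passed, with a median of 0.24, with Eig71Ed at 0.53 ± 0.24, Eig71Ef at 0.34 ± 0.29 (SD, n = 4) and Eig71Ee at 1.69, 2.65, -0.38 and -0.25 on replicates 1 to 4. Of 4 muscle genes 0 passed (median -0.57, Mlc1 -0.81 ± 0.57, up -0.65 ± 0.35). Lowest on replicate 3 were 3 of these 4, beside 26.1 percent of all features. Of 6 imaginal disc genes 0 passed (median 0.17, nub 0.64 ± 0.78, ey -0.56 ± 0.38).

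**Figure D5:**
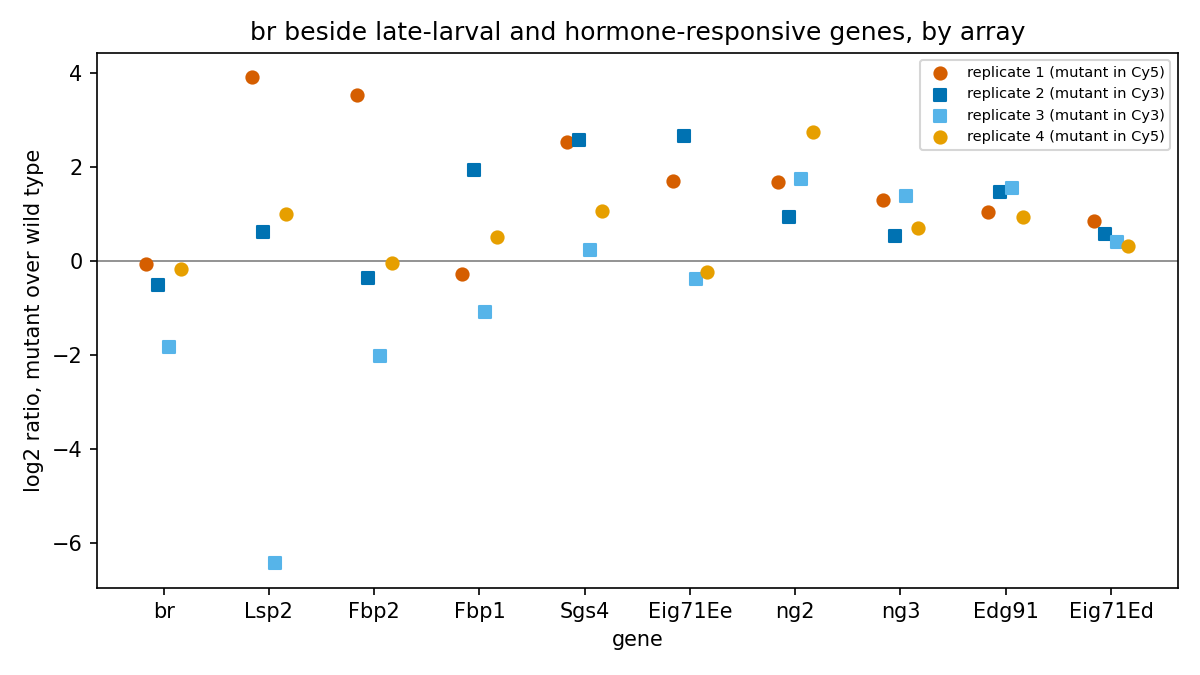
Log2 ratio of mutant over wild type (vertical axis) for br beside fat body, salivary gland, Eig71E and cuticle genes (horizontal axis), with 1 point per array, circles for the mutant in Cy5 and squares for the mutant in Cy3. The lowest points of br, Lsp2, Fbp2, Fbp1, Sgs4 and Eig71Ee are those of replicate 3, whereas ng2, ng3 and Edg91 lie above 0 on every array.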

How the data were processed

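Total RNA of larvae was made into cDNA and labelled by a Klenow reaction with either dye, per the labels' protocols. The deposited values were 1 log2 ratio per probe and array. The sources used here do not give scanner, background correction, within-array normalization, log base or direction. Sizes up to 13.22 are too wide for another usual base, so base 2 was assumed. Array medians lay between -0.0015 and 0.0128, so the columns were already centred. Gene symbols came from the platform annotation of 2007, in which 12658 probes had 1 symbol, 96 several and 1815 none, and the current table of the Release 6 assembly gave transcripts and gene order. Probes of 1 gene were averaged per array. All features were fitted together with limma 3.58.1 in R 4.3.3 (lmFit, eBayes, two-sided, Benjamini-Hochberg, threshold 0.05). The fit was also run on simulated data with known fold changes. Their noise was independent, without array or dye structure, so this run does not cover such structure. The number of arrays limits the precision, and channel brightness was not used here.

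The members and lists were chosen with earlier results of these data known. The genes named are the members, 1 to 3 genes of each list with the smallest p, the 3 genes nearest to each of the 3 members with the smallest p, neighbours on the chromosome and Invadolysin. The alternatives tried were centring, scaling or quantile normalization of the arrays, a term for dye, single probes, array weights, robust eBayes, removal of extreme features, turned Cy3 arrays, each array left out, each dye orientation alone and, added after the data were seen, the median over probes. Figures and tables were made in Python 3.11.15 (matplotlib 3.10.9, pandas 2.3.3, numpy 2.4.6).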

Additional observations from a re-analysis of the deposited data

Results flagged for a closer look

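The imaginal disc gene ey stood out for 1 array lying far from the other 3. Its log2 ratio was -1.13 on replicate 1, against -0.44, -0.34 and -0.32 on replicates 2 to 4, and the gap to the nearest value was 0.849 of the whole range, above Dixon's 95% critical value for 4 values. Of 51 items checked in this way, which were genes, single probes and the median of the members, 1 passed. Chance passes about 1 in 20 separate items, but these overlap, since probes and the means of their genes were both checked. None of the ecdysone receptor and early response genes passed (0 of 7), and br on replicate 3 did not reach the critical value.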

How the results depend on the processing

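The count of 0 members past the threshold held under 15 of 16 alternatives. Of the 112 values of members 99 kept their direction and their side of the threshold. Part of this was fixed in advance. With a dye term, with turned Cy3 arrays and without replicate 1, 0 features passed at all. A dye term, single probes, robust eBayes and removal of extreme features leave each mean unchanged by construction. The array weights were 0.52, 5.47, 1.5 and 0.23 on replicates 1 to 4, so the weighted fit rests mostly on replicate 2. With these weights limma called 3 of 7 members: Hr3 (-0.60, adjusted p = 0.00872), Hr39 (-0.50, 0.0118) and br (-0.74, 0.0447). They were among 6079 of all 13891 features called, 3041 higher and 3038 lower. Members thus passed about as often as features in general. The same weights gave Eip78C -0.0083 and Fbp2 -0.42. The cause of these changes was not tested. The count of features, 114 (55 higher and 59 lower), was 0 with a dye term (3537 at an unadjusted p under 0.05), 217 (85 and 132) without features over 5 in size, 4 (3 and 1) on the Cy5 arrays alone and 2573 (1249 and 1324) on the Cy3 arrays alone. Leaving out 1 array gave 0 to 21 features, 0 to 17 higher and 0 to 5 lower, the 0 being without replicate 1 (2052 at an unadjusted p under 0.05). Under quantile normalization 35 features were lower.

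Turning the sign of the Cy3 arrays, which by construction gives half-differences between dye orientations, led limma to call 0 features (1053 at an unadjusted p under 0.05). The member median was then 0.23, with EcR at 0.28, usp at 0.17, br at 0.53, Hr3 at 0.012, Hr39 at 0.23 and ftz-f1 at -0.038. Of the other named genes CG10098 and CG9344 were at 0.23, CG5541 at 0.20, CG7246 at 0.0052, Pcp at 0.49, Rh50 at 0.47, Svip at 0.56, Cth at 0.33, dib at 0.33, Edg78E at 0.34, Hr38 at 0.084, Mlc1 at 0.40, up at 0.11 and Lsp2 at 2.69. Edg91 was at -0.26, Eig71Ee at -0.21, Fbp1 at -0.16, Invadolysin at -0.035, Met at -0.12, Ptth at -0.033, knrl at -0.019 and nub at -0.52.

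Of 559 values of the other named genes 492 kept their direction and side, 38 passed the threshold only under the alternative and 29 changed sign. As for the members, part of this was fixed in advance. EcR was 0.22 on the Cy5 arrays and -0.19 to 0.090 with 1 array left out, and Eip78C was -0.066 on the Cy3 arrays. Lsp2 was 0.53 under quantile normalization, 2.45 on the Cy5 arrays and -1.61 to 1.84 with 1 array left out. Fbp2 was -1.19 on the Cy3 arrays and -0.81 to 1.04 with 1 array left out, and Fbp1 -0.29 to 0.71. Each array already sets its mutant against its wild-type sample, so the test of the log2 ratio against 0 is itself paired by array.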
